A study of Homo sapiens with 12 samples.

Results

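The response to prolactin (PRL) was described here in MCF10AT cells that carried a human prolactin receptor pair whose I-tail had been deleted. These cells are a Ras-transformed derivative of MCF10A, a non-tumorigenic human breast epithelial line, and per the labels they expressed the long receptor hPRLrL together with the intermediate receptor hPRLrI lacking its I-tail, the C-terminal stretch particular to that isoform. The libraries were chosen by their genotype and treatment labels. They are 3 libraries of cells given PRL at 250 ng/ml for 2 h and 3 libraries of untreated cells of the same genotype, 6 of the 12 libraries of the series. The other 6 libraries come from cells with the intact I-tail, untreated or treated in the same way, and serve only as a comparison and as part of the fit. All 12 cultures had spent 24 h in medium with bovine serum albumin in place of serum, so no group shows the response in growing cells. The libraries are called biological replicates in the labels, which do not say whether they came from separate clones or days, so p-values measure the spread between these samples. No source used here says whether each receptor pair is 1 clone or a pool.

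Prolactin binds a single-pass receptor of the class I cytokine family, which has no kinase of its own and signals through the associated kinase JAK2. JAK2 phosphorylates STAT5A and STAT5B, which enter the nucleus and bind palindromic DNA sites, and the receptor also feeds the Ras-ERK and PI3K-AKT pathways. In the mammary gland this pathway drives alveolar differentiation and milk protein synthesis, and it is shut off by feedback inhibitors of the SOCS family. The long and intermediate isoforms share the extracellular domain and differ in their cytoplasmic tails.

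Titles number the libraries from 1 to 12, and each run of 4 consecutive numbers holds 1 library of every group. This title run entered the fit as a block. The labels do not call it a batch. Of 17677 genes tested, 7444 (42.1%) differed between title runs at an adjusted p under 0.05. Within the deleted pair, the basal keratin KRT5 stood at 387 to 2820 CPM (counts as a share of the library, with TMM scaling) in untreated and 416 to 3330 CPM in PRL libraries, and in both groups the lowest library was that of title run 1. Deposited counts totalled 38209715 to 46684862 per untreated and 36120808 to 44133028 per PRL library. The epithelial label was checked against fixed markers: the 7 basal markers summed to 3460 to 11900 CPM in untreated and 3610 to 14100 CPM in PRL libraries, with KRT5, KRT17 and ITGB4 abundant. Luminal KRT8 and KRT18 were also present, while ESR1 stayed at or below 0.341 CPM and KRT19 at or below 0.749 CPM. EPCAM was low too, at 2.45 to 5.33 CPM in untreated and 2.69 to 5.04 CPM in PRL libraries. In the same order, CDH1 stood at 15 to 68.7 and 14.4 to 57.6 CPM. Within the basal list, TP63 stood at 7.36 to 33.9 and 8.07 to 31.3 CPM, and VIM at 479 to 575 and 466 to 608 CPM. Leukocyte markers summed to at most 0.208 CPM, with CD163 at 0 counts in all 6 libraries, whereas the fibroblast list summed to 431 to 575 and 477 to 616 CPM, nearly all of it DCN and COL1A1.

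PRLR, the gene whose product was altered, was read at 3632, 3455 and 3655 CPM in untreated libraries of title runs 1, 2 and 3 and at 3761, 3133 and 3759 CPM with PRL. The ranges overlapped and the log2 fold change was -0.01 ± 0.13 (SE, adjusted p = 0.989, edgeR quasi-likelihood F test). A gene count does not separate receptor isoforms and does not check the deletion. JAK2, the receptor's kinase, stood at -0.09, STAT5A at -0.20 and STAT5B at -0.11, and none passed. In the list of 21 tested receptor, JAK and STAT genes 0 were called, and their log2 fold changes lay between -0.20 and 0.15. The median was -0.04 beside -0.02 over all tested genes.

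With the I-tail deleted, PRL changed 57 of 17677 genes at an adjusted p under 0.05 (0.322% of genes tested). Of these, 52 rose (0.294% of genes tested) and 5 fell (0.0283%). The genes that rose had a median log2 fold change of 0.94, and 25 of the 57 changed at least 2-fold, 22 upward and 3 downward. All 57 moved in the same direction in each of the 3 title runs. The share of all tested genes that did so is not given here. In 45 of them the 3 treated libraries lay entirely above or below the 3 untreated ones, a pattern that 1460 genes (8.26%) showed over the whole table, and in the other 12 the groups overlapped. Calls, directions by run and overlap read the same values, so this is a description. Without adjustment 1158 genes (6.55%) had p under 0.05, 559 upward and 599 downward, so the predominance of rises belongs to the genes that passed the adjusted threshold.

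**Figure D1:**
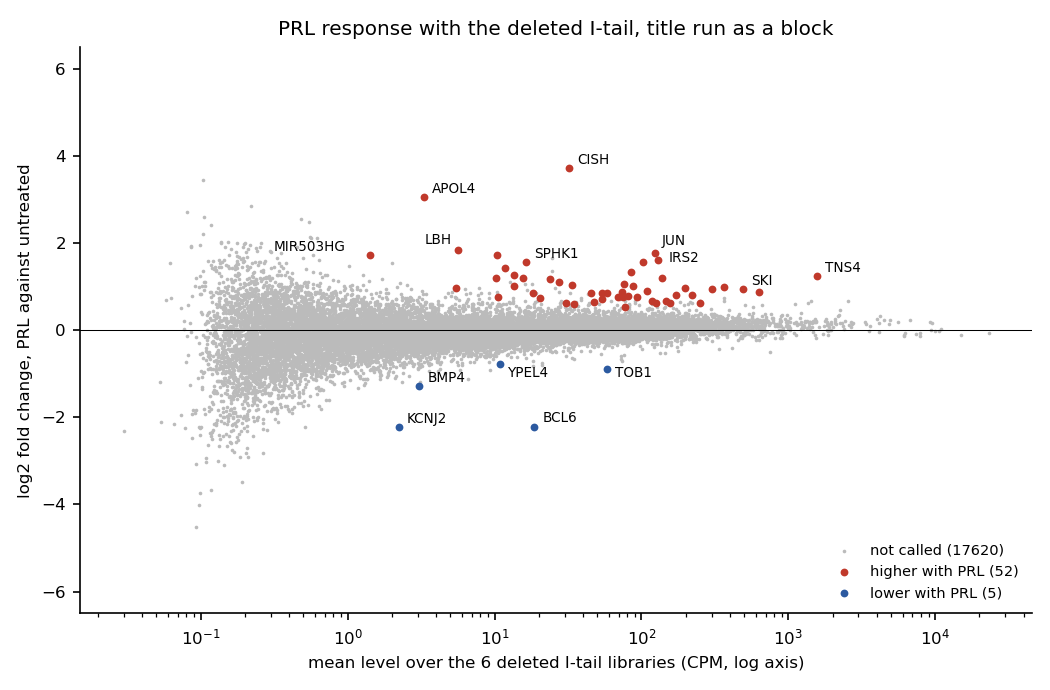
Log2 fold change with PRL against mean level (CPM, log axis) for each of 17677 tested genes in the deleted I-tail cells, with called genes coloured. The 52 genes that rose extend up to CISH at 3.71, and the 5 that fell down to KCNJ2 at -2.22, while uncalled genes of similar size lie mostly at low levels.

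The feedback inhibitors of cytokine receptors held the largest rise. CISH, which binds phosphorylated cytokine receptors and blocks STAT5 docking, was read at 3.25, 5.18 and 5.26 CPM in untreated libraries of title runs 1, 2 and 3 and at 56.8, 55.0 and 66.3 CPM with PRL. The groups were far apart, and the fold change was 13.1 (log2 3.71 ± 0.15, adjusted p = 2.95e-09). SOCS2, an inhibitor of the same family that also acts on growth hormone receptor, was read at 5.38, 3.36 and 5.88 CPM without and 16.7, 14.3 and 16.6 CPM with PRL, a rise of 1.74 ± 0.17 (adjusted p = 0.00011). Its treated libraries lay close together and all above the untreated ones. The other 6 of the 8 tested family members did not pass, with values from -0.26 for SOCS3 to 0.48 for SOCS1, and the list median was 0.30. SOCS1 stood at 0.600 to 1.78 CPM with PRL and 0.669 to 1.33 CPM without, so its level was low throughout. SPSB1, a SOCS-box protein with a SPRY domain that recruits a ubiquitin ligase, rose by 0.85 ± 0.13 (adjusted p = 0.00906). The calls of CISH and SOCS2 held in all 12 fits that leave out 1 library, while that of SPSB1 held in 7 of 12 (adjusted p up to 0.107).

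BCL6 showed the most marked fall among called genes above 10 CPM. This zinc finger repressor, which binds sites resembling those of STAT5, was read at 34.1, 29.8 and 27.0 CPM in untreated libraries and at 9.94, 5.89 and 4.75 CPM with PRL. The groups did not overlap, and the level fell 4.63-fold (log2 -2.21 ± 0.23, adjusted p = 0.00018). The gene of a corepressor that binds BCL6, BCOR, moved the other way, from 74.9, 79.2 and 73.3 CPM to 152, 157 and 117 CPM (0.89 ± 0.15, adjusted p = 0.0146). TLE3, a Groucho-family corepressor, went from 106, 132 and 137 to 204, 227 and 220.1 CPM (0.80 ± 0.13, adjusted p = 0.0125). Of 21 tested genes in the list of BCL6, TLE and corepressor genes, 2 rose, 1 fell and 18 did not pass, with a median of 0.03. Among uncalled members, the nuclear receptor corepressor NRIP1 stood at 0.72 ± 0.20 (adjusted p = 0.332). BCL6 kept its call in all 12 leave-outs of 1 library, whereas BCOR and TLE3 lost theirs without any 1 of the deleted libraries other than PRL library 2 (adjusted p up to 0.106 and 0.128).

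Promoter sequence is shown for CISH and BCL6 because they moved in opposite directions and both hold repeated matches to the STAT5 palindrome TTCNNNGAA. The stretches run from 250 bases before to 30 bases after the start in RefSeq (GRCh38.p14), 5′ to 3′ on the gene's strand, with matches in capitals. CISH lies at chr3:50611745-50612024 and BCL6 at chr3:187745439-187745718, both on the minus strand.
CISH: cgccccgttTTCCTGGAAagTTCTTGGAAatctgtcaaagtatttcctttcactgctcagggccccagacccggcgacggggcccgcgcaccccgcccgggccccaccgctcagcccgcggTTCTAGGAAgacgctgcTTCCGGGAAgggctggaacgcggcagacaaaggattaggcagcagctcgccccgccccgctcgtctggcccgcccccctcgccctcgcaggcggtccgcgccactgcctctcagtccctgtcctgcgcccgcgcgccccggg
BCL6: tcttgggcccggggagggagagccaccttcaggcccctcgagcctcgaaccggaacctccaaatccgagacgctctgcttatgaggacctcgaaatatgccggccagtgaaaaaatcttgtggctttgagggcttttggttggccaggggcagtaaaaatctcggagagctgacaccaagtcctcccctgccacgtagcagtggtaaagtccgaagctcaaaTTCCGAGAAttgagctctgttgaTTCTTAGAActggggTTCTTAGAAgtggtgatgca

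The 4 CISH matches begin at -241, -230, -129 and -112 relative to the start, in pairs well upstream of it. The BCL6 matches begin at -28, -5, 11 and 37, around the start itself, and the last lies outside the stretch shown. The palindrome reads the same on both strands and occurred at least once in 7.66% of 35116 RefSeq windows of 300 bases. At least 4 matches, a number chosen after these values were seen, were found in 7 of all these windows (0.0199%). Of the tested genes, 4 had such a window, CISH and BCL6 among them. Of the 57 called genes 39 had a window, and 5 of these held a match (12.8%), beside 8.46% of 11869 tested genes with a window. The other 3 were ID3, CD14 and SPHK1, with 1 match each. The AP-1 palindrome TGANTCA was found in the windows of 6 of the 39 (15.4%), namely BCL6, CD14, DNMBP, PALM2AKAP2, SPHK1 and YPEL4, beside 7.45% of tested genes with a window and 7.71% of all windows. A match is a string of letters and does not show binding.

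Among AP-1 subunits, JUN and JUNB rose. JUN, the DNA-binding partner of FOS proteins, was read at 52.2, 49.0 and 68.2 CPM without and at 186, 183 and 204 CPM with PRL (1.76 ± 0.18, adjusted p = 0.00011). JUNB, a related subunit, was read at 197, 198 and 230.2 CPM without and at 339, 401 and 462 CPM with PRL (0.94 ± 0.16, adjusted p = 0.0188). For both genes every treated library lay above every untreated one. The remaining 16 of 18 tested subunits did not pass, and the list median was 0.19. FOSL1, the subunit FRA1, stood at 10.99 to 11.6 CPM without and 18 to 32.1 CPM with PRL, so its groups did not overlap, but at 1.06 ± 0.33 it missed the threshold (adjusted p = 0.437). BATF3 had the highest value of the list, 2.13 ± 0.68, at a mean of 0.566 CPM, and did not pass either (adjusted p = 0.453).

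Few other immediate early genes were called at 2 h. Of 37 tested, 2 rose: IER3, a survival and ERK-regulating gene, by 0.68 ± 0.12 (adjusted p = 0.0208), and ZFP36L2, an RNA-binding protein that speeds decay of AU-rich transcripts, by 0.63 ± 0.12 (adjusted p = 0.0452). The list median was -0.02. HES1, a Notch-responsive repressor, stood lowest in p among the uncalled genes at -0.76 ± 0.17 (adjusted p = 0.095), with 23.6, 24.7 and 31.3 CPM without and 16.4, 15.6 and 14.1 CPM with PRL. Of 29 ERK feedback genes, 3 rose: SPRY4, an inhibitor of Ras-ERK signalling, by 1.01 ± 0.19 (adjusted p = 0.0358), IER3, and PHLDA2, a PH-domain protein, by 0.76 ± 0.14 (adjusted p = 0.0326). SPRY1, a relative of SPRY4, stood at -1.13 ± 0.32 and did not pass (adjusted p = 0.351). The 14 tested Kruppel-like factors gave 0 calls and a median of -0.11.

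IRS2 led the genes of insulin and PI3K signalling. This docking protein of insulin and cytokine receptors was read at 74.0, 58.4 and 57 CPM in untreated libraries and at 255, 182 and 153 CPM with PRL (1.61 ± 0.14, adjusted p = 6.25e-05). The groups were well separated, and the highest library of each group was that of title run 1. TRIB1 and TRIB3, pseudokinases of the Tribbles family, rose by 1.10 ± 0.14 (adjusted p = 0.00249) and 1.05 ± 0.21 (adjusted p = 0.0452). TRIB1 kept its call in all 12 leave-outs and TRIB3 in 3 of 12 (adjusted p up to 0.587). Of 36 tested insulin, PI3K and FOXO genes 3 rose and 1 fell, the last being BCL6, which FOXO factors are known to induce. The other 32 did not pass, and the median of the list was -0.20. CITED2, a coactivator-binding protein, was closest among them at -0.53 ± 0.11 (adjusted p = 0.0876).

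Among 35 tested genes of the TGF-beta and BMP pathway, 5 rose and 1 fell. SMAD6, an inhibitory SMAD of the BMP branch, was read at 12.7, 17.9 and 13.7 CPM without and at 30.1, 38.5 and 30.1 CPM with PRL (1.17 ± 0.12, adjusted p = 0.00011). SKI, a SMAD-binding repressor, went from 339.8, 327 and 341 to 676, 589.5 and 676 CPM (0.95 ± 0.14, adjusted p = 0.00705). ID2, an inhibitor of helix-loop-helix factors that BMPs and STAT5 can induce, went from 8.05, 4.99 and 6.06 to 16.0, 15.0 and 11.7 CPM (1.19 ± 0.18, adjusted p = 0.00737). For these 3 genes the groups did not overlap. ID3, of the same family, rose by 0.68 ± 0.11 (adjusted p = 0.0101), with overlapping groups since the treated library of title run 1, at 119 CPM, lay below untreated libraries of runs 2 and 3. JUNB is the fifth of these rises.

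BMP4, a secreted ligand of the BMP branch, fell from 4.11, 4.96 and 4.04 to 1.96, 1.83 and 1.51 CPM (-1.29 ± 0.23, adjusted p = 0.0256). The treated libraries all lay below the untreated ones. The ligand fell while the inhibitory SMAD and the repressor of the pathway rose, but ID2 and ID3 rose as well. Whether signalling through the pathway changed was not tested. The list median was 0.18, with 24 of 35 members above 0. SMAD7, an inhibitory SMAD of both branches, stood at 0.83 ± 0.19 (adjusted p = 0.103) with non-overlapping groups of 28.8 to 35.6 and 50.8 to 59.6 CPM. SMAD6 was called in all 12 leave-outs. SKI lost its call without deleted PRL library 1 or 3 or untreated library 2 or 3 (adjusted p up to 0.0952), ID2 without deleted untreated library 2 or 3 (up to 0.0658), and BMP4 without any 1 of the 6 deleted libraries (up to 0.273).

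**Figure D2:**
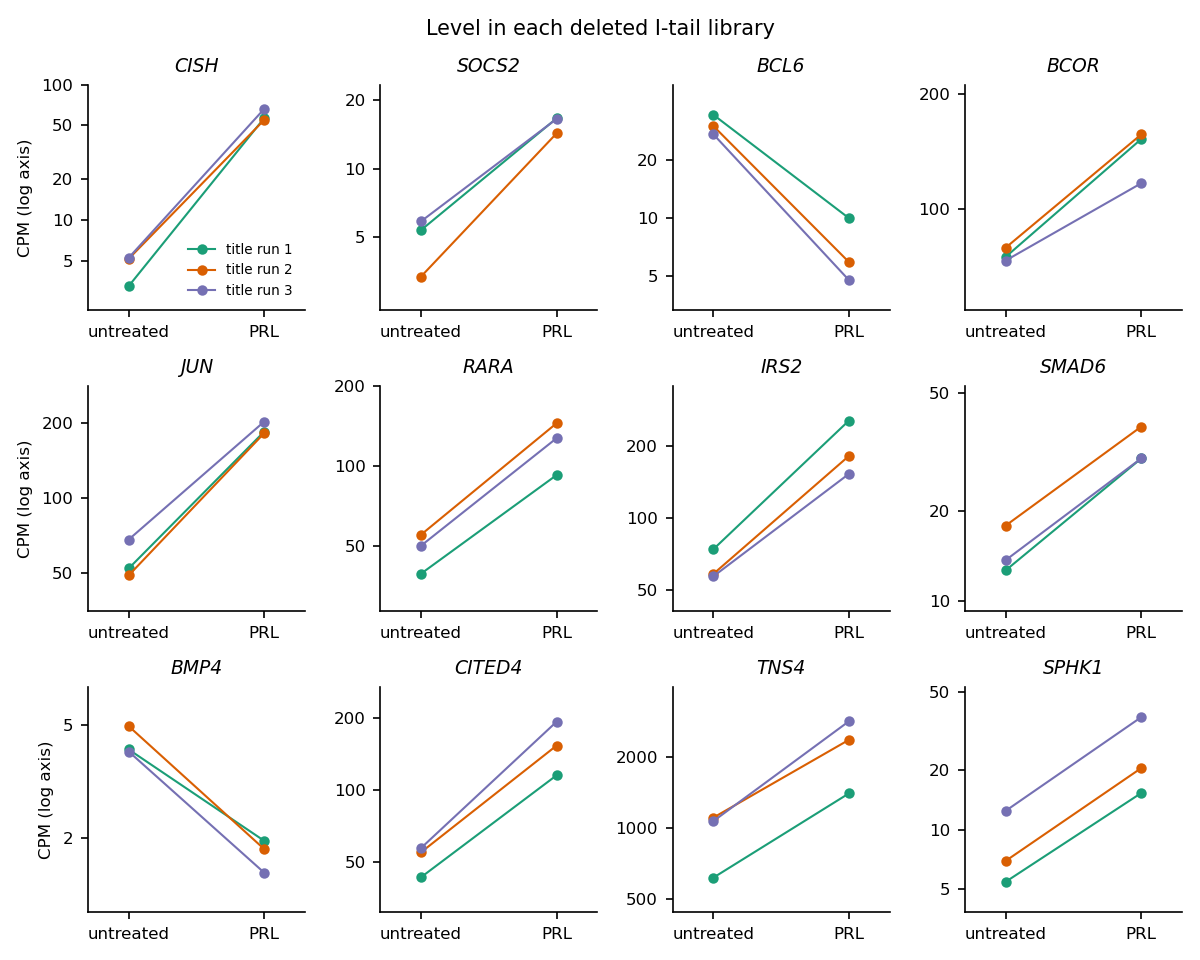
Level of 12 called genes in each deleted I-tail library (CPM, log axis), with lines joining the untreated and PRL libraries of the same title run. Each line rises for the 10 genes called upward and falls for BCL6 and BMP4. Lines of IRS2, RARA, TNS4 and SPHK1 are shifted against each other but nearly parallel.

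Both nuclear receptor genes that passed rose. RARA, a retinoic acid receptor, was read at 39.3, 55.1 and 50.1 CPM without and at 92.6, 145 and 128 CPM with PRL (1.33 ± 0.13, adjusted p = 0.00011). VDR, the vitamin D receptor, went from 45.3, 62.7 and 68.6 to 108, 105 and 138 CPM (1.01 ± 0.16, adjusted p = 0.00901). The groups of neither gene overlapped, and title run 1 held the lowest untreated library of both. The other 27 of 29 tested receptors did not pass, and the median was 0.16. NR4A2, an orphan receptor, stood at -1.12 ± 0.31 (adjusted p = 0.294) and NR4A3, its relative, at 1.27 ± 0.44 (adjusted p = 0.572). RARA kept its call in all 12 leave-outs and VDR in 7 (adjusted p up to 0.116).

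Further transcription factors and cofactors rose. CITED4, a partner of the coactivators CBP and p300, was read at 43.4, 55.1 and 57.4 CPM without and at 115, 153 and 193 CPM with PRL (1.56 ± 0.24, adjusted p = 0.00785). LBH, a transcriptional cofactor of limb, heart and mammary development, went from 2.24, 1.75 and 3.13 to 13.4, 6.17 and 7.28 CPM (1.84 ± 0.32, adjusted p = 0.019), with wide scatter between runs. Both genes kept their calls in 8 of 12 leave-outs (adjusted p up to 0.118 and 0.153). FOXC2, a forkhead factor, rose by 1.03 ± 0.17 (adjusted p = 0.012), the only call among 13 tested members of that family. MSX1, a homeobox repressor, rose by 0.97 ± 0.19, ZNF503, a zinc finger repressor, by 0.86 ± 0.13, and TBX3, a T-box factor needed for mammary placodes, by 0.75 ± 0.13. TFEB, a regulator of lysosome genes, rose by 0.78 ± 0.11 (adjusted p = 0.0062), and was the only 1 called among 30 tested lysosome and autophagy genes of its programme, whose median was -0.04.

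CEBPB, a leucine zipper factor of mammary and cytokine responses, rose by 0.62 ± 0.12 (adjusted p = 0.0452), from 182, 187 and 220.1 to 279, 294 and 329.6 CPM. HIF1A, the oxygen-regulated factor, rose by 0.53 ± 0.10 (adjusted p = 0.0459), the smallest change of the 57, from 78.2, 52.1 and 60.0 to 116, 69.7 and 90.8 CPM with overlapping groups. Each kept its call in only 1 of 12 leave-outs (adjusted p up to 0.429 and 0.507). PPRC1, a coactivator related to PGC-1, rose by 0.84 ± 0.13. TOB1, an antiproliferative protein that promotes mRNA deadenylation, fell from 108, 63.0 and 57.2 to 51.6, 41.9 and 27.8 CPM (-0.89 ± 0.16, adjusted p = 0.0256). In the list of 22 tested STAT5 target genes, CISH, SOCS2, ID2 and CEBPB rose and BCL6 fell. The remaining 17 were not called, and the median was 0.24. The 8 tested milk protein and alveolar genes gave 0 calls and a median of -0.19, and 1 of the 8 lay above 0.

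Several called genes act on adhesion, the cytoskeleton and small GTPases, a grouping made after their values were seen and not tested for enrichment. TNS4, a tensin that binds integrin tails and receptor kinases, had the highest level of all called genes, at 616, 1106 and 1069 CPM without and 1401, 2361 and 2829 CPM with PRL (1.23 ± 0.14, adjusted p = 0.000579). Its untreated library of title run 1 was much lower than the other two, yet the groups did not overlap. SH3PXD2B, a podosome scaffold, went from 376, 560.2 and 405 to 778, 861 and 806 CPM (0.89 ± 0.13, adjusted p = 0.00737). DNMBP, an exchange factor for CDC42, rose by 0.87 ± 0.12 and CDC42EP1, a CDC42 effector, by 0.80 ± 0.15. TIAM1, an exchange factor for RAC, rose by 0.73 ± 0.14, and most in title run 1, where it went from 18.7 to 42.0 CPM against 13.7 to 18.4 and 12 to 18 CPM in the other runs. PRAG1, a pseudokinase scaffold, rose by 0.77 ± 0.11, and PALM2AKAP2, an anchoring protein of protein kinase A, by 0.62 ± 0.11. GRB7, an adaptor of receptor tyrosine kinases, rose by 0.62 ± 0.11 (adjusted p = 0.0182).

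Enzymes, membrane proteins and secreted factors were also called. SPHK1, which makes sphingosine 1-phosphate, was read at 5.42, 6.93 and 12.5 CPM without and at 15.4, 20.6 and 37.4 CPM with PRL (1.56 ± 0.27, adjusted p = 0.0179). Title run 3 held the highest library of both groups, the groups did not overlap and the rise was alike in all 3 runs. NNMT, a nicotinamide methyltransferase, went from 132, 282 and 338 to 305, 486 and 659.8 CPM (0.99 ± 0.15, adjusted p = 0.00891), with groups that overlapped because title run 1 was low in both. KCNJ2, an inward rectifier potassium channel, fell from 4.85, 3.68 and 2.13 to 1.89, 0.629 and 0.195 CPM (-2.22 ± 0.38, adjusted p = 0.0179).

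APOL4, an apolipoprotein L gene, was read at 0.323, 0.951 and 0.726 CPM without and at 7.80, 5.77 and 4.29 CPM with PRL (3.05 ± 0.54, adjusted p = 0.0213). Its groups were far apart from a low untreated level, and it was the only called gene of 6 tested family members. The calls of SPHK1, KCNJ2 and APOL4 held in 6, 8 and 5 of 12 leave-outs (adjusted p up to 0.242, 0.127 and 0.156). TNFRSF12A, the receptor of the cytokine TWEAK, rose by 0.97 ± 0.16, CD14, a coreceptor for lipopolysaccharide, by 0.84 ± 0.15 and TNFAIP8, an apoptosis regulator, by 0.76 ± 0.14. DNAJB5, a cochaperone, rose by 0.71 ± 0.12. YPEL4, of the yippee family, fell from 14.2, 12.9 and 14.2 to 7.58, 8.94 and 7.4 CPM (-0.78 ± 0.15, adjusted p = 0.0452).

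IL11, a cytokine of the gp130 family, lay just outside the threshold at 1.37 ± 0.27 (adjusted p = 0.0502), with 12.1, 14.5 and 15.1 CPM without and 36.5, 27.7 and 42.7 CPM with PRL. Its treated libraries all lay above the untreated ones. In its list of 13 tested genes, headed gp130 cytokines and their receptors, the only call was CEBPB, a leucine zipper factor that is neither. The list median was 0.01.

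Less studied and noncoding genes made up the rest. SOWAHC, an ankyrin-repeat protein, rose by 1.43 ± 0.14 (adjusted p = 0.00011), ZSWIM4, a SWIM zinc finger protein, by 1.21 ± 0.22 (adjusted p = 0.0276), ABTB2, a BTB-domain protein, by 0.65 ± 0.12 and SAMD11 by 0.60 ± 0.12. Of the 57 genes 54 are protein coding in GENCODE 29, 2 are long intergenic RNAs and 1 is a transcript awaiting experimental checks. MIR503HG, host of microRNAs, went from 0.415, 0.592 and 0.976 to 1.47, 2.14 and 2.87 CPM (1.72 ± 0.30, adjusted p = 0.0208). The treated libraries lay above the untreated ones at a low level, and the call held in 6 of 12 leave-outs (adjusted p up to 0.205). LINC01819 rose by 1.26 ± 0.19 (adjusted p = 0.00705), and its gene lies 182855 bases from that of ZFP36L2. The unnamed entry ENSG00000279806 went from 53.2, 114 and 84.7 to 119, 232 and 227 CPM (1.21 ± 0.12, adjusted p = 0.00011), close to the 1.23 of TNS4, and lies 539 bases from TNS4 on the same strand of chromosome 17. RARA, 118185 bases from TNS4, was called too. Unspliced or read-through transcripts of TNS4 were not tested.

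**Figure D3:**
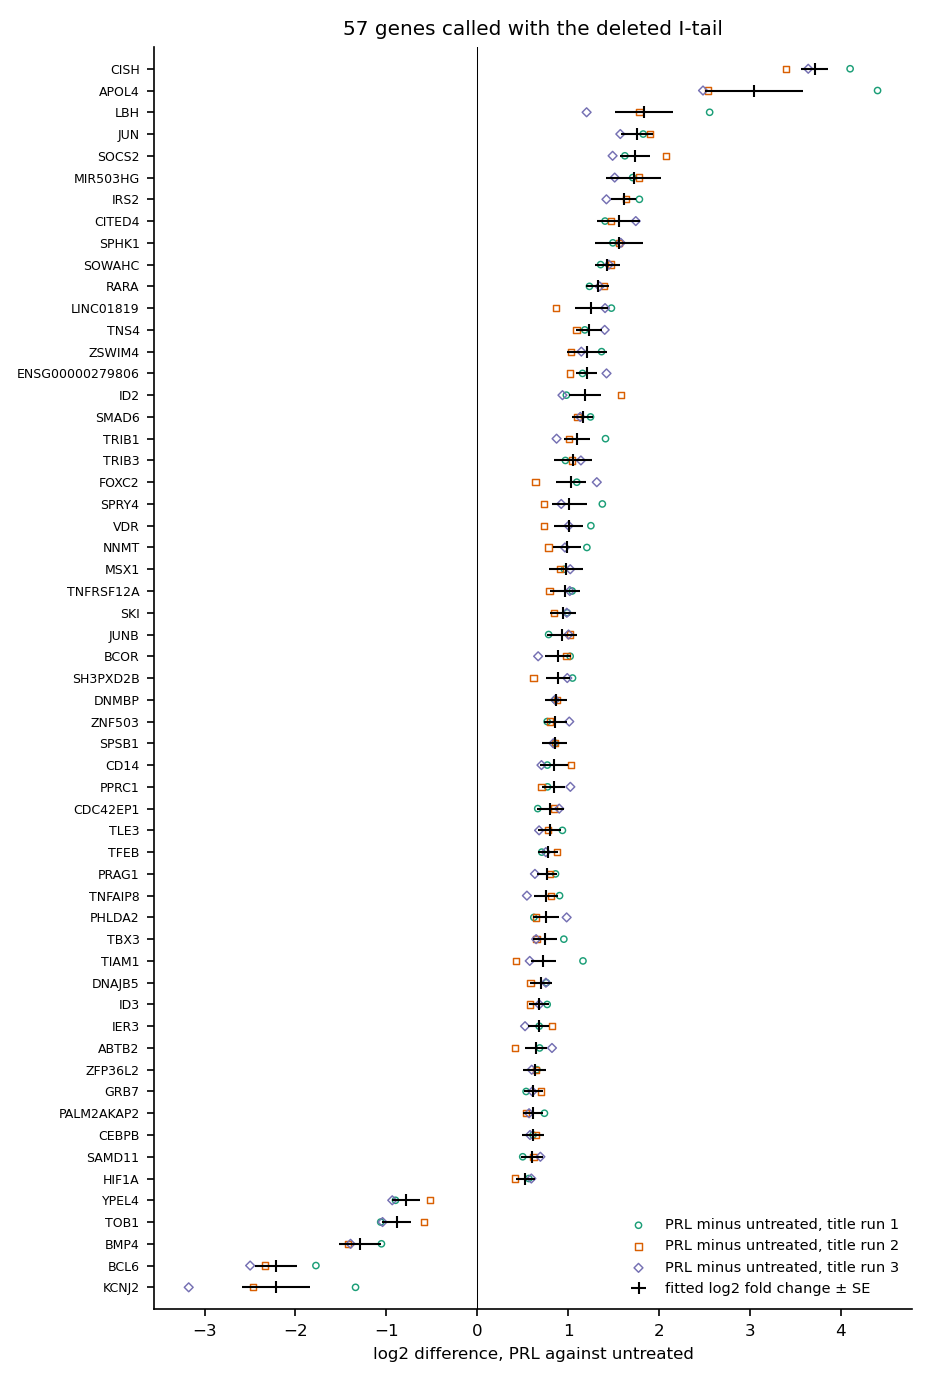
Fitted log2 fold change ± SE of the 57 called genes with PRL (black) and the log2 difference of each title run (open symbols). Runs scatter most widely for APOL4, LBH and KCNJ2, and by more than the SE for many others, among them BCL6, CISH and TIAM1. Every open symbol lies on the same side of 0 as its gene's estimate.

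Exons of 15 called genes overlap those of another tested gene, and no such partner was called. No source used here says whether counting used strand, and without it the reads of overlapping opposite-strand neighbours cannot be told apart. Beside CISH, MAPKAPK3 stood at 0.32 ± 0.15, and beside JUNB, HOOK2 at 0.03 ± 0.10. RARA-AS1 stood at 0.65 ± 0.34, SOCS2-AS1 at 0.48 ± 0.34, PRPSAP1 beside SPHK1 at -0.05 ± 0.12, TOB1-AS1 at -0.54 ± 0.52 and KCNJ2-AS1 at -0.81 ± 0.67. The antisense genes of RARA, SOCS2, TOB1 and KCNJ2 were read at or below 1.51 CPM on average. Some partners were read above the called gene itself, among them MAPKAPK3 at 101.5 CPM, PRPSAP1 at 34.1 CPM and NOC2L, beside SAMD11, at 161 CPM (0.25 ± 0.13). The share of reads counted for CISH, SPHK1 and SAMD11 that came from these partners was not tested.

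Of the 37 lists with tested members, 14 held a called gene. The 31 G2-M genes had the highest median of all, 0.61, with 29 above 0, yet 0 were called. Their smallest adjusted p was 0.421, and 11 of the 31 had an unadjusted p under 0.05 by edgeR, beside 6.55% of all tested genes. A fit of the 6 deleted libraries alone, with the block, called 21 of the 31 upward and 0 downward, where it called 1049 of 16577 genes (6.33%) in all. That fit has its own run term and spread, and fewer residual degrees of freedom than the main one, which called 57 genes. The main fit applied the same run term to both genotypes. Why the counts differ was not tested. Without the block, the 6 deleted libraries alone gave 11 calls in all. UBE2C, a ubiquitin-conjugating enzyme of mitosis, stood at 0.92 ± 0.28, CDK1, the mitotic kinase, at 0.84 ± 0.29 and MKI67, a proliferation marker, at 0.61 ± 0.23. MKI67 was read at 19.1, 43.4 and 14.2 CPM without and at 29.3, 44.7 and 29.1 CPM with PRL, with overlapping groups. The list median differed between title runs, at 0.50, 0.09 and 0.93 for runs 1, 2 and 3, and was 0.17 without deleted PRL library 3 and 0.91 without deleted PRL library 2. In the intact pair it was 0.14. The 26 DNA replication genes gave 0 calls and a median of 0.10, and the 19 G1 cyclins and CDK inhibitors 0 calls and -0.03.

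The remaining lists held few calls or none. Of 28 integrated stress and unfolded protein response genes, TRIB3 and CEBPB rose and the median was 0.05. The interferon response (28 genes, median 0.05), chemokines and NF-kB feedback (21, 0.01), EGF ligands and ERBB receptors (14, 0.07), cholesterol synthesis (23, 0.11), hypoxia and glycolysis (23, 0.06), survival genes (21, 0.06), YAP-TAZ targets (26, -0.02) and matrix proteases (19, 0.03) gave 0 calls. So did Notch and WNT genes (33, -0.16), p53 targets (28, -0.17), epithelial to mesenchymal factors (22, -0.14), circadian clock genes (20, -0.23) and epidermal differentiation (15, 0.02). The circadian median was the lowest of the 37 lists and ran from -0.33 to -0.11 over the alternative settings, with 6 of 20 genes above 0 and 6 at an unadjusted p under 0.05. Fitted alone with the block, the deleted libraries gave 7 circadian genes called downward and 1 upward, and 8 p53 targets downward and 2 upward. That fit called 1049 of 16577 genes (6.33%) in all, and these 2 lists were not singular in it. YAP-TAZ targets had 5 upward and 4 downward, Notch and WNT genes 3 and 5, and cholesterol synthesis 5 and 0. Insulin, PI3K and FOXO genes had 5 upward and 12 downward, while the interferon response had 0 and 0. Among markers, 0 of 7 basal, 7 luminal, 4 fibroblast and 3 endothelial genes tested were called, with medians of 0.14, -0.15, 0.01 and 0.10.

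**Figure D4:**
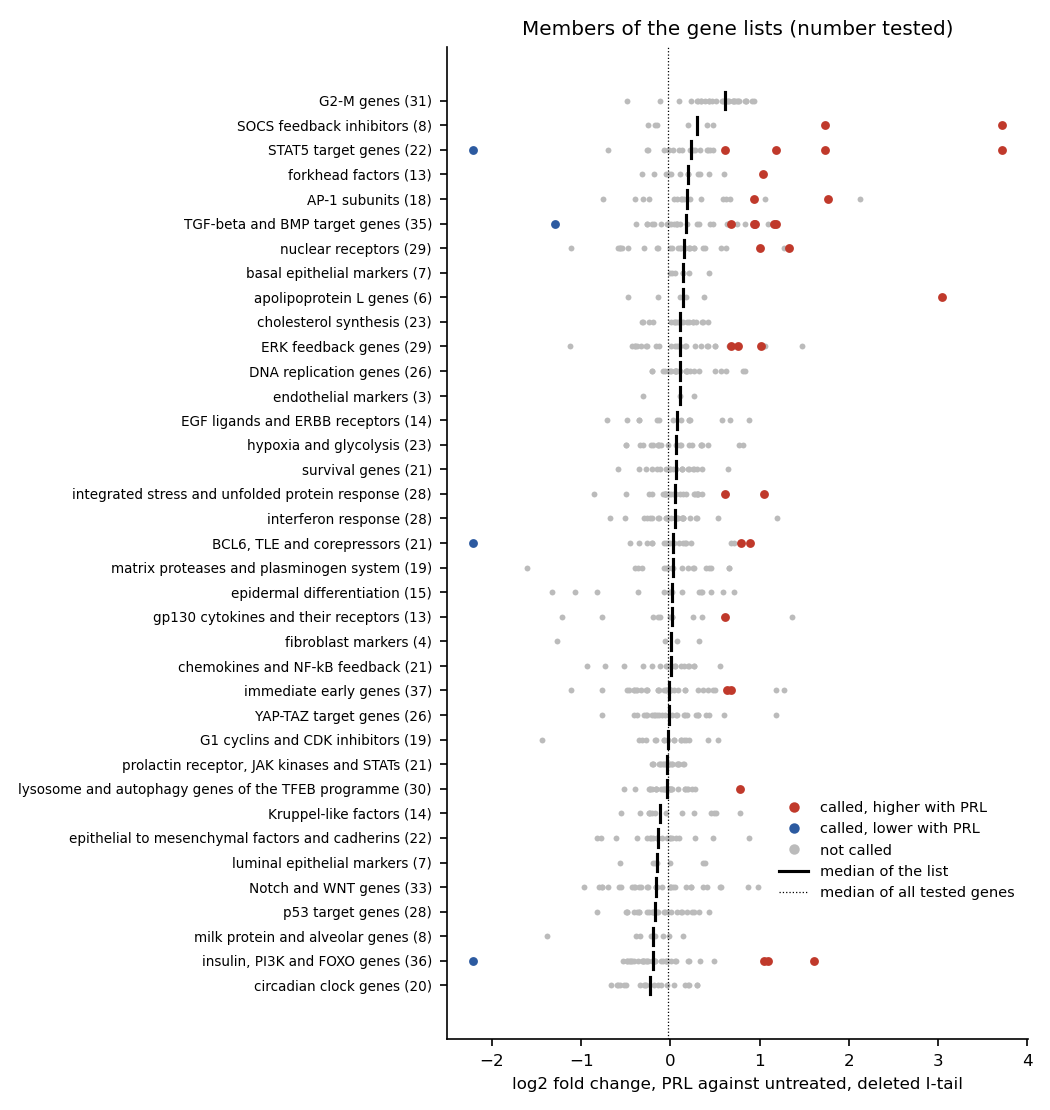
Log2 fold change with PRL of each tested member of 37 gene lists in the deleted I-tail cells, ordered by list median (black bars), with the number tested in parentheses. Called genes (red or blue) stand out from their lists, whereas the G2-M genes lie mostly above 0 around a median of 0.61, with 0 called in this fit. When the deleted libraries were fitted alone with the block, 21 were called upward. That fit, with its own run term and fewer residual degrees of freedom, called 1049 genes in all.

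With the intact I-tail the same fit called 62 genes (0.351%), 58 upward and 4 downward. Both comparisons share the fit, its spread and the title-run term but no libraries. Of the 57 genes called with the deleted I-tail, 43 were also called with the intact one, 75.4% of the former and 69.4% of the latter. All 57 had the same sign with the intact I-tail, and 55 had an unadjusted p under 0.05 there, beside 8.24% of all tested genes. The 14 genes called only with the deletion were ID2, ID3, KCNJ2, DNAJB5, GRB7, MIR503HG, BMP4, CD14, PHLDA2, SPRY4, YPEL4, ZFP36L2, CEBPB and HIF1A, but being called in a single pair does not show a difference between them.

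The difference of the PRL effects was tested directly and 0 genes were called by edgeR, with a smallest adjusted p of 1. At an unadjusted p under 0.05 there were 345 genes (1.95%), and DESeq2 and limma-voom called 0 as well, with 481 and 396 genes at that unadjusted level. Each of these counts is below the share of 0.05 that evenly spread p-values would give. The tests thus ran cautious here, and the reason was not tested. Among the 57, GRB7 had the smallest p, 0.0128: it stood at 0.62 with the deleted and 0.20 with the intact I-tail, a difference of 0.42 with a 95% interval from 0.10 to 0.74. HIF1A stood at 0.53 and 0.20, a difference of 0.33 with an interval from 0.02 to 0.65. By edgeR both have an adjusted p of 1. The half-width of this interval, which is not adjusted for the number of genes tested, had a median of 0.42 over the 57 genes. Differences of that size or larger between the receptor pairs could thus go uncalled, as did that of 0.74 for PFDN4. The 0 calls therefore do not show that the effects are equal. CISH differed by -0.27 (interval -0.70 to 0.15), BCL6 by 0.04 (-0.63 to 0.71), SOCS2 by -0.12 (-0.62 to 0.38), JUN by -0.04 (-0.55 to 0.48) and ID2 by 0.49 (-0.04 to 1.03). Over all genes the smallest p-values belonged to PFDN4 (0.000855), ENSG00000223461, ADH1B, PMS2P3 and AURKC, of which PFDN4 alone exceeded 2 CPM on average in the deleted pair.

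**Figure D5:**
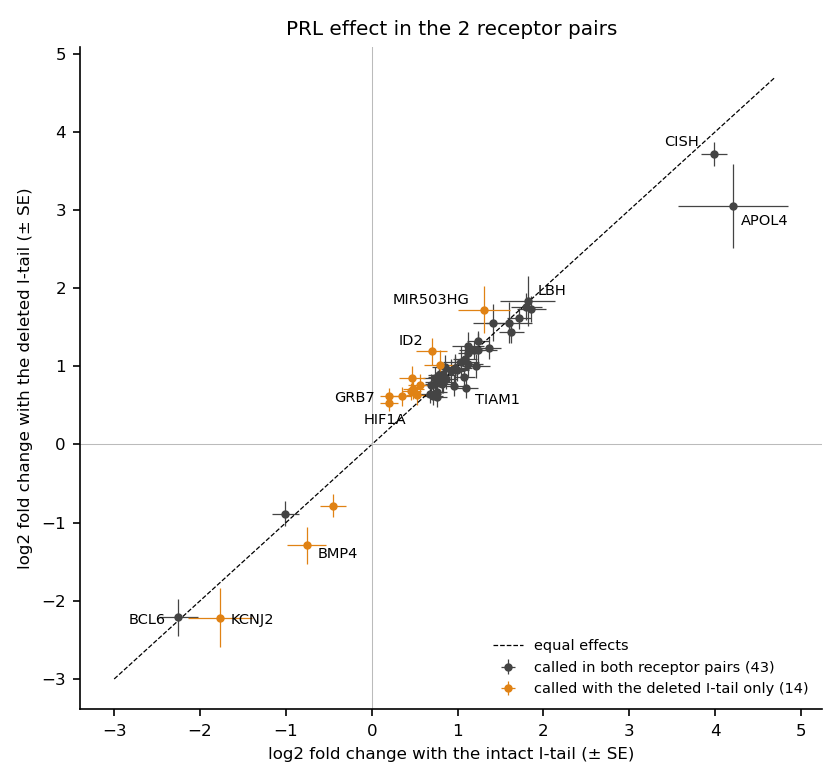
Log2 fold change with PRL in deleted I-tail cells against that in intact I-tail cells for the 57 called genes, each ± SE, with the line of equal effects dashed. All points lie in the lower left or upper right. Genes called only with the deletion (orange) were chosen by the deleted effect, so their place relative to the line is set in part by that choice.

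How many genes passed depended on the title run. Without the block 3 genes were called (0.017%), CISH, JUN and SOWAHC, all 3 among the 57. Fold changes moved little, by at most 0.26 in log2 for any of the 57, while their standard errors with the block were 0.26 to 0.88 times those without it, with a median of 0.57. SOCS2 stood at 1.74 ± 0.17 with the block and 1.71 ± 0.28 without (adjusted p = 0.139), BCL6 at -2.21 ± 0.23 and -2.14 ± 0.39 (0.249), and TNS4 at 1.23 ± 0.14 and 1.24 ± 0.39 (1). Of the 57, 42 also differed between title runs, beside 7444 of all 17677 tested genes (42.1%).

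Single libraries also moved the count. It fell to 25, 16 and 12 genes without deleted untreated library 1, 2 or 3, to 13 and 15 without deleted PRL library 1 or 3, and to 37 without intact untreated library 3, and rose to 116 without intact PRL library 2. Calls of 11 genes held in all 12 leave-outs: CISH, SOCS2, BCL6, IRS2, JUN, RARA, SMAD6, TNS4, TRIB1, SOWAHC and ENSG00000279806. For no called gene did the direction reverse in any of the 26 alternative settings, and CISH, JUN and SOWAHC kept their calls in all of them. These settings refit the same libraries and are not independent of the main fit.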

How the data were processed

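PolyA RNA of 12 MCF10AT libraries, 3 per group, was measured. The deposited values are whole-number counts for each Ensembl gene, made by the authors with STAR 2.7.9a and featureCounts of Subread on GRCh38, with FastQC also named, per the submitters' processing notes. No source used here names the annotation release or strand setting. Of 62703 entries, 1 without values was left out. Groups came from the genotype and treatment labels, and libraries are numbered by title run.

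In R 4.3.3, edgeR 4.0.16 tested 17677 genes kept by filterByExpr, with TMM scaling, 1 mean per group over all 12 libraries, title run as a block and robust quasi-likelihood F tests (6 residual degrees of freedom). Benjamini-Hochberg adjustment covered every gene tested, with calls at 0.05. The biological coefficient of variation was 0.179 with the block and 0.303 without it, and a log2 fold change had a 95% interval of ± 0.437 at the median. Replicates of the deleted pair differed beyond sampling noise (chi-square per degree of freedom 57.15 to 146.6). In the deleted pair, deviations from group means correlated at 0.275 to 0.506 between libraries of the same run (3 of 3 over 0.1). Between runs the values were -0.312 to 0.00469, which are in part forced, since deviations within a group sum to 0. Over all 12 libraries, same-run pairs gave 0.0966 to 0.603 (16 of 18 over 0.1). The run term of the main fit was shared by all groups, so run shifts that differ between genotypes enter its spread. Intact PRL library 2 correlated at 0.301 with deleted PRL library 3 and at 0.0984 with deleted PRL library 2 of its own run. The pairing comes from title numbers and these correlations, and no label states it.

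The comparison and the 38 gene lists were chosen with earlier results of these data known, so lists are described by counts and medians without a test. Named were PRLR, JAK2, STAT5A and STAT5B, the 20 largest rises and all falls among called genes with a mean of at least 1 CPM, called list members with up to 3 uncalled ones, and other called genes by role. Alternatives were no block, the deleted pair alone, DESeq2 1.42.0, limma-voom (limma 3.58.1), other scalings, filters and dispersions, and leaving out each library or run. The method was tested on simulated data. Gene positions are from GENCODE 29 and promoters from RefSeq. Isoforms and the I-tail sequence were not analysed here. Some results are not reported here.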

Additional observations from a re-analysis of the deposited data

How the results depend on the processing

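The count of 57 genes with the deleted I-tail was 3 with no replicate block, 1049 in the deleted pair only with the replicate block (686 upward, 363 downward, all 57 included), 11 in the deleted pair only with no replicate block, 140 with DESeq2 (112 upward, 28 downward, all 57 included) and 215 without a count filter (172 upward, 43 downward). It was 10 without title run 1, 228 without title run 2 (181 upward, 47 downward) and 6 without title run 3, and it ranged from 12 to 116 over the fits leaving out 1 library. The share of rises, 91.2% in the main result, was 65.4% in the blocked pair alone, 80% with DESeq2 or without a filter and 79.4% without title run 2. Limma-voom gave 68, RLE scaling 52, upper-quartile scaling 53, the stricter filter 56 and no robust estimation 55. Library-size scaling gave 42, 38 of them among the 57, and moved the median of all genes to -0.111. The count of 62 with the intact I-tail was 3 with no replicate block, 180 with DESeq2, 287 without a count filter, 9, 106 and 16 without title run 1, 2 and 3, and ranged from 13 to 77 when 1 library was left out. The difference of the PRL effects gave 0 calls under each of these settings that could estimate it. Among uncalled genes, leaving out 1 library gave PRLR from -0.09029 to 0.0936 and JAK2 from -0.4693 to 0.1872. PRLR turned to 0.0936 without deleted PRL library 2, 0.02103 without deleted untreated library 3 and 0.05613 without title run 2. JAK2 turned to 0.1872 without deleted PRL library 3, 0.01797 without title run 1 and 0.0595 without title run 3, and SOCS1 to -0.01832 without title run 3. The causes were not tested. Leaving out a run leaves 2 libraries per group, and leaving out 1 library leaves its run without a match in that group. Depth limits genes near 1 CPM, where a PRL effect rests on few counts.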
